A study of Mus musculus with 12 samples.

Results

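Aire, Ccr7, Cd83, Ccl17, Ccl22 and Flt3 are 6 genes tied to dendritic cells, chosen by their symbols from the 770 genes of a mouse immune panel, of which 750 are not reference genes. They were picked with earlier values of these same tumors known, from their levels and their correlation across the tumors, so their levels, fold changes and correlations are given as a description and without p-values. Expression was counted in 12 A20 tumors. A20 is a B-cell lymphoma line of Balb/c origin, 5000000 cells of which were implanted under the skin of female Balb/c mice. About 7 days later the tumors received 3 intratumoral injections, 1 every other day, and were collected 2 h after the last. The PBS group (n = 4) received buffer, the SE group (n = 4) a 2% stable emulsion alone, and the GLA-SE group (n = 4), called G100 by the study, 10 µg of the TLR4 agonist glucopyranosyl lipid A in 50 µl of that emulsion. All mice were otherwise untreated, the RNA came from whole tumors grown from a single cell line, and the labels give no age.

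Dendritic cells mature when pattern receptors such as TLR4 are engaged: they raise surface molecules for T-cell stimulation, acquire CCR7 and move to lymph nodes. CCR7 is the receptor for the chemokines CCL19 and CCL21. CCL17 and CCL22, both ligands of CCR4, are secreted by mature dendritic cells and some macrophages, and CD83 is a surface protein of mature dendritic cells and activated B cells. FLT3 is the receptor tyrosine kinase that dendritic cell precursors need to develop. AIRE is a transcriptional regulator best known for driving tissue-restricted antigens in medullary thymic epithelium, and outside the thymus it is found in rare CCR7-positive cells with dendritic cell features.

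Promoter sequence was available for Ccl17, Ccl22, Flt3 and Aire of the 6 genes (RefSeq, GRCm38.p6, 250 bases before to 50 bases after the start). The promoters of both CCR4 ligands and of Aire are shown because these genes had their highest values in different tumors, Aire in 1 GLA-SE tumor and Ccl22 in 1 SE tumor. Capitals mark GGGACTT, a core also found in kB sites, and TATAAA.

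Ccl22 (chr8:94745434-94745733, plus strand): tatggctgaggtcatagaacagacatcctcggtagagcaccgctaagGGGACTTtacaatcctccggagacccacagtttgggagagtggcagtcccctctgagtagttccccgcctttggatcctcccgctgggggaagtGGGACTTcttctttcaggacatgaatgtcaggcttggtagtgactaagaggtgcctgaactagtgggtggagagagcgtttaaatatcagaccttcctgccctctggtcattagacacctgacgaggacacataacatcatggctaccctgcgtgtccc
Ccl17 (chr8:94810203-94810502, plus strand): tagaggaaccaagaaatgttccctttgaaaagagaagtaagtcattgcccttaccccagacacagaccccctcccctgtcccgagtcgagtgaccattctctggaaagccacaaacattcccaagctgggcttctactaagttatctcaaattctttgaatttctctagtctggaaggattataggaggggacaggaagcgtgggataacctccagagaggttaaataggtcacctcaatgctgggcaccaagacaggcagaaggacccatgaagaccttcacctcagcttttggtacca
Aire (chr10:78043561-78043860, minus strand): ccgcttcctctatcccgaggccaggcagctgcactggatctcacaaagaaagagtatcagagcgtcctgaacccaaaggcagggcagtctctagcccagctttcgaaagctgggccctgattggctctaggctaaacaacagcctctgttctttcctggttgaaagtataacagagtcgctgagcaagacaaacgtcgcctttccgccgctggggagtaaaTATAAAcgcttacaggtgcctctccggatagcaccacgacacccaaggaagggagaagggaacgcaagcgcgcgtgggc

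GGGACTT was searched on both strands and stood in the Ccl22 window at 203 and 109 bases before the start. It was not among the letters of the other 3 windows, and 5.42% of 27025 promoters, 1 per gene, hold it. TATAAA stood 29 bases before the start of Aire, and 14.2% of all promoters hold it. The looser kB pattern GGGNNNNNCC was matched in Ccl22 alone of the 4, at 162 and 131 bases before the start on the opposite strand and not overlapping GGGACTT, and 50.4% of promoters hold it. The core of an interferon-stimulated response element, GAAA followed by any 2 bases and GAAA again, was matched in 0 of the 4 and in 3.49% of all promoters. A match is a string of letters and was not tied to any binding measurement.

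Counts are numbers of barcoded probes per gene, deposited by the authors as whole numbers and treated here as not normalized, because totals and reference genes differed between tumors. The total per tumor was 810260 to 1612415. Normalized counts below are these counts scaled to the geometric mean of 17 reference genes. Relative to those genes the median log2 fold change over all 750 genes was 0.89 in GLA-SE against PBS, 0.53 in SE against PBS and 0.22 in GLA-SE against SE, so every rise has to be read beside these values. SE replicate 4 stood apart, with a reference gene mean of 1011 against 1647 to 3077 in the other tumors. Its summed markers were the highest of all tumors for epithelium (7184, against 283 to 2270), endothelium and fibroblasts (124397, against 3917 to 29047) lymph node stroma (26529, against 606 to 7918) and T cells (7009, against 1037 to 4500), and its B-cell sum the lowest (15298, against 17640 to 25338). GLA-SE replicate 3 also stood apart, with a neutrophil sum of 11312 against 1264 to 2942 in the other GLA-SE tumors. No marker was at 0 in any tumor, and the B-cell markers of the lymphoma were present in all, Ms4a1 at 5187 to 10483 normalized counts. Fold changes without 1 of these tumors stand beside several of the results.

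Relative to the reference genes, 5 of the 6 genes were called higher in GLA-SE than in PBS tumors by edgeR, as were 68.3% of all 750 genes, with Aire the most raised and Flt3 nearly level. Between PBS and GLA-SE tumors the values of Aire, Ccr7, Ccl22 and Cd83 did not overlap, as for 63.6% of all genes, whereas those of Ccl17 and Flt3 did. With this scaling, but not relative to the panel median, Aire was also the 1 gene of the 6 for which every GLA-SE tumor lay above every SE tumor. This held for 14.4% of all genes. SE tumors overlapped PBS tumors for all 6 genes, and SE replicate 4 had the highest Ccl22 of all 12.

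Ccl17 was counted sparsely. Normalized counts were 16.0, 12.2, 10.2 and 10.3 in the PBS tumors, 8.02, 6.25, 9.99 and 55.0 in the SE tumors, and 35.7, 55.0, 34.8 and 11.2 in the GLA-SE tumors. GLA-SE replicates 1 to 3 were thus above all PBS tumors and GLA-SE replicate 4 lay among them, while SE replicate 4 matched the highest GLA-SE tumor. The mean was 12.2 ± 2.71 (SD, n = 4) in PBS, 19.8 ± 23.5 in SE and 34.2 ± 17.9 in GLA-SE tumors. The log2 fold change was 1.49 (standard error 0.43) in GLA-SE against PBS, 0.59 (0.71) in SE against PBS and 0.87 (0.79) in GLA-SE against SE. Without SE replicate 4 the second became −0.59 and the third 2.07. All PBS tumors, 3 SE tumors and 1 GLA-SE tumor had fewer than 20 deposited counts of Ccl17. Its 6 to 53 deposited counts lay in the range of 8 liver genes (6 to 182, with 7 of them at 46 or less), a list added after the counts were seen as a gauge of background.

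Ccl22 was the CCR4 ligand with the larger fold change in GLA-SE against PBS, at 104 to 391 deposited counts in the GLA-SE tumors. Its normalized counts were 42.4, 44.9, 29.2 and 38.1 in the PBS tumors, 30.8, 28.1, 89.9 and 515 in the SE tumors, and 149, 182, 425 and 106 in the GLA-SE tumors. Every GLA-SE tumor exceeded every PBS tumor, and the SE tumors spread across and beyond both groups. The mean was 38.7 ± 6.88 in PBS, 166 ± 234 in SE and 215 ± 143 in GLA-SE tumors. The log2 fold change was 2.48 (0.44) in GLA-SE against PBS and 1.92 without GLA-SE replicate 3. It was 2.09 (0.95) in SE against PBS, but 0.35 without SE replicate 4. In GLA-SE against SE it was 0.39 (0.97), changing to 2.13 without SE replicate 4 and to −0.18 without GLA-SE replicate 3. Among protein-coding genes of the GRCm38.p6 annotation, Ccl22 and Ccl17 have 1 gene between them, Cx3cl1, which encodes fractalkine and was named after its values were seen. Cx3cl1 was called higher in GLA-SE tumors (52.9 to 132 normalized counts) than in PBS tumors (20.6 to 40.5), with a log2 fold change of 1.63 (0.34, edgeR adjusted p = 0.00356).

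Ccr7 had the second largest log2 fold change of the 6 in GLA-SE against PBS. Tumor by tumor, Ccr7 was at 323, 158, 229 and 239 normalized counts in the PBS tumors, 278, 136, 324 and 1026 in the SE tumors, and 588, 765, 4063 and 958 in the GLA-SE tumors. The lowest GLA-SE tumor was above the highest PBS tumor, and SE replicate 4, which stood apart in several marker sums, was the 1 SE tumor inside the GLA-SE range. The mean was 237 ± 67.6 in PBS, 441 ± 398 in SE and 1594 ± 1653 in GLA-SE tumors. The log2 fold change was 2.75 (0.63) in GLA-SE against PBS and 1.70 without GLA-SE replicate 3. In SE against PBS it was 0.89 (0.59), and 0.05 without SE replicate 4. For GLA-SE against SE it was 1.86 (0.82), 0.81 without GLA-SE replicate 3 and 2.69 without SE replicate 4.

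Flt3 differed least. Its normalized counts were 471, 437, 528 and 501 in the PBS tumors, 597, 684, 538 and 334 in the SE tumors, and 517, 503, 817 and 513 in the GLA-SE tumors. All 3 groups overlapped, GLA-SE replicate 3 was the highest tumor and SE replicate 4 the lowest. The mean was 484 ± 39.3 in PBS, 538 ± 149 in SE and 587 ± 153 in GLA-SE tumors. The log2 fold change of 0.28 (0.18) in GLA-SE against PBS was below the panel median of 0.89, and it was 0.08 without GLA-SE replicate 3. Its direction was not settled, since it was −1.04 with scaling to the panel median, −0.65 with TMM scaling and −0.03 with no rescaling. The values in SE against PBS and GLA-SE against SE were 0.15 (0.23) and 0.12 (0.28), and they too turned negative with both of these scalings.

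Cd83 was well counted in every tumor, and 3 of the 4 GLA-SE tumors lay close together. The normalized counts were 1010, 753, 825 and 920 in the PBS tumors, 1275, 944, 1776 and 2553 in the SE tumors, and 1595, 1680, 4377 and 1620 in the GLA-SE tumors. The GLA-SE tumors were all above the PBS tumors, and 3 of them lay within 1595 to 1680. SE replicate 1 lay between the PBS and GLA-SE tumors, SE replicate 2 lay among the PBS tumors, and SE replicates 3 and 4 exceeded those 3 GLA-SE tumors. The mean was 877 ± 112 in PBS, 1637 ± 700 in SE and 2318 ± 1373 in GLA-SE tumors. The log2 fold change was 1.40 (0.34) in GLA-SE against PBS and 0.90 without GLA-SE replicate 3, while scaling to the panel median left 0.05. It was 0.90 (0.30) in SE against PBS, and 0.60 without SE replicate 4. In GLA-SE against SE it was 0.50 (0.44), with −0.0043 without GLA-SE replicate 3 and −0.27 with the panel median scaling.

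Aire was within the range of the liver genes in all tumors but GLA-SE replicate 3, and had the largest log2 fold change of the 6. As normalized counts, Aire was at 14.1, 14.0, 20.4 and 9.53 in the PBS tumors, 20.1, 17.7, 40.0 and 28.5 in the SE tumors, and 45.3, 62.3, 677 and 86.4 in the GLA-SE tumors. With this scaling each GLA-SE tumor was above all 8 others, SE tumors overlapped PBS tumors, and GLA-SE replicate 3 was far above the rest. The panel median was 321 normalized counts in GLA-SE replicate 1, 274 in SE replicate 3 and 138 in PBS replicate 3. Relative to the panel median, Aire in GLA-SE replicate 1 lay below Aire in both of those tumors, so the groups then overlapped. The mean was 14.5 ± 4.49 in PBS, 26.6 ± 10.1 in SE and 218 ± 307 in GLA-SE tumors. The log2 fold change was 3.89 (0.95) in GLA-SE against PBS, which ranked 7 among 750 genes, and 2.14 without GLA-SE replicate 3. With the panel median and TMM scalings it was 2.37 and 2.83. In GLA-SE against SE it was 3.04 (0.96), ranking 4, and 1.29 without GLA-SE replicate 3. For SE against PBS it was 0.85 (0.36), ranking 251. The deposited counts behind the PBS values were 12 to 28, with 3 of 4 tumors under 20, and those of the GLA-SE tumors were 47, 60, 623 and 85. In the GLA-SE tumors the liver genes had 6 to 170 deposited counts, so only the 623 lay above them. Liver genes other than C8a stayed at 46 or less in all tumors. Of the 8 liver genes 2 were themselves called higher in GLA-SE against PBS, beside 68.3% of all genes.

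**Figure D1:**
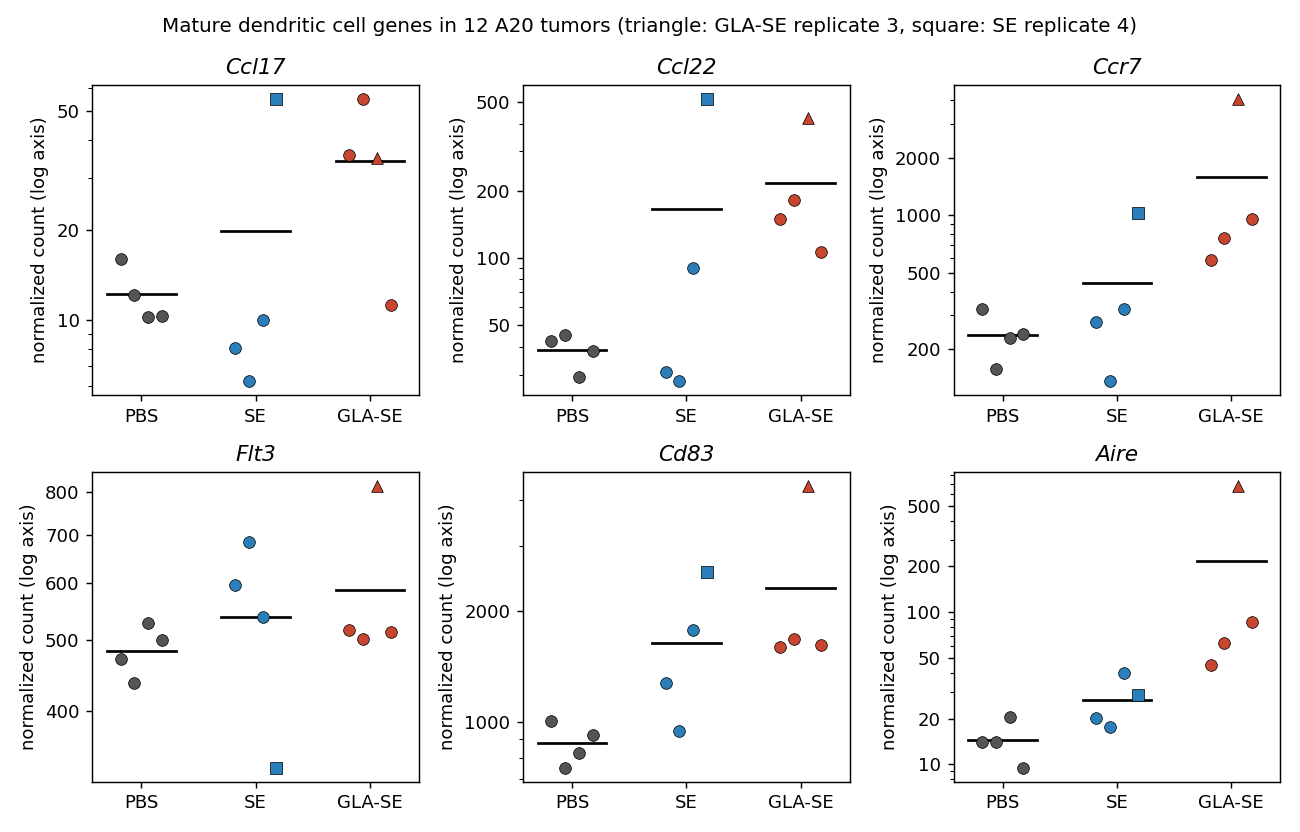
Normalized counts of the 6 genes on log axes in PBS, SE and GLA-SE tumors, with 1 point per tumor (n = 4 per group) and a line at the arithmetic mean. GLA-SE replicate 3 (triangle) is the highest tumor for Ccr7, Flt3, Cd83 and Aire, and SE replicate 4 (square) is the highest for Ccl22. With this reference gene scaling Aire is the 1 gene whose GLA-SE tumors, at 45.3 or more, all lie above both other groups.

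In bulk tissue, more cells of a type and more RNA per cell cannot be told apart, and several of these genes can also be transcribed by lymphocytes or macrophages. In GLA-SE against PBS, edgeR's quasi-likelihood test called 5 of the 6 genes higher and 0 lower, beside 68.3% of all 750 genes higher and 0.4% lower. For the 6 the median log2 fold change was 1.98 against 0.89 for all genes. Groups did not overlap for 4 of 6 genes, beside 63.6% of all genes higher without overlap. In SE against PBS 0 of 6 were called and 0 were without overlap, beside 0% called in either direction and 8.67% higher without overlap. By the same test 140 of all 750 genes had an unadjusted p under 0.05 there, and DESeq2 called 58 with reference gene size factors and 9 with its own. In GLA-SE against SE 0 of 6 were called, beside 2.13% higher and 0% lower, and 1 of 6, Aire, was higher without overlap, beside 14.4% of all genes. The medians of the 6 in these comparisons were 0.87 and 0.69, against 0.53 and 0.22 for all genes. GLA-SE against PBS and SE against PBS share the PBS tumors, so they are not independent. Since the same values chose the genes, these counts describe them and support nothing.

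With GLA-SE replicate 3 left out, 5 of 6 genes were called higher in GLA-SE against PBS, beside 483 (64.4%) of all 750 genes. With the panel median scaling, under which the median of all genes was −0.40, Aire, Ccl22 and Ccr7 were called higher and Flt3 lower, beside 61 genes higher and 307 lower over the panel. TMM scaling, with a median of −0.01, called the same 3 genes higher and Flt3 lower, beside 148 higher and 168 lower. Cd83 (0.05 with the panel median and 0.45 with TMM) and Ccl17 (0.21 and 0.58) were not called under either. Under these 3 scalings all but Flt3 had fold changes above the median of all genes. In GLA-SE against SE the 0 of 6 called also varied. Ccl17 was called higher without SE replicate 4, beside 13.5% of all genes, and Ccr7 without GLA-SE replicate 3 and SE replicate 4, beside 9.07%. Aire was called in 1 fit of 12 tumors, beside 9.2%, and Aire and Ccr7 with no rescaling, beside 11.7%. DESeq2 with its own size factors called Ccr7, beside 6.4%. The 6 genes were chosen on these same values, so all these calls too are a description and support nothing.

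**Figure D2:**
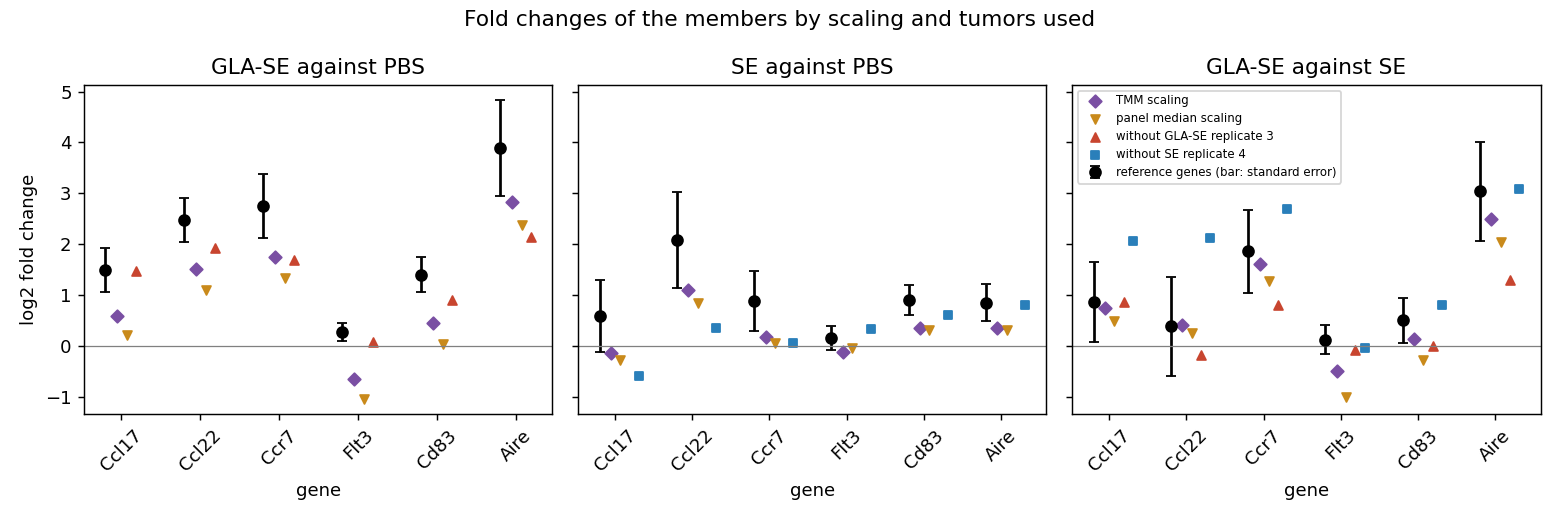
Log2 fold changes of the 6 genes in the 3 comparisons (n = 4 tumors per group), as black points with standard errors for reference gene scaling and as coloured marks for other scalings or with 1 tumor left out. In GLA-SE against PBS, Aire stays at 2.14 or more in all settings drawn, and Flt3 runs from −1.04 to 0.28.

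Ratios of 2 genes within a tumor do not depend on scaling. The log2 ratio of each gene's deposited counts to those of Flt3 was compared between tumors, not between genes. For Aire to Flt3 it was −5.06, −4.96, −4.69 and −5.72 in the PBS tumors, −4.90, −5.27, −3.75 and −3.55 in the SE tumors, and −3.51, −3.01, −0.27 and −2.57 in the GLA-SE tumors. All GLA-SE tumors were above all others, though the lowest was barely above SE replicate 4. The mean ratio of Aire to Flt3 was higher by 2.77 on the log2 scale in GLA-SE than in PBS tumors, and those of Ccr7, Ccl22, Ccl17 and Cd83 to Flt3 by 2.07, 2.04, 1.05 and 1.01. Of these, Ccr7, Ccl22 and Cd83 were without overlap and Ccl17 was not. In SE against PBS the 5 ratios differed by −0.0025 for Ccl17 to 0.95 for Ccl22, and all overlapped. Aire and Ccl22 parted in the 2 tumors that stood apart. Their log2 ratio, Aire to Ccl22, was 0.67 in GLA-SE replicate 3 and −4.18 in SE replicate 4, against −2 to −0.29 in the other 10 tumors.

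Across the 12 tumors every pair of the 5 genes other than Flt3 had a positive r (0.48 to 0.93), and pairs with Flt3 had −0.30 to 0.52. These correlations are of log2(normalized count + 1), rest on 12 tumors that share treatment groups and scaling, and carry no p. The mean Pearson r over the 15 pairs was 0.56, beside 0.48 over all pairs of the 750 genes. After each group's mean was subtracted it was 0.39, beside 0.40. Over the 10 pairs without Flt3 the mean r was 0.79, and 0.66 within groups. Within groups and without GLA-SE replicate 3 and SE replicate 4 it was 0.40. Leaving out the gene with the low r raises such a mean, so these values have no like value over all genes. Over the 5 pairs with Flt3 the mean r was 0.10, and −0.16 within groups.

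Ccr7 and Cd83 were the closest pair, with r = 0.93 (Spearman's rho = 0.90), 0.97 within groups and 0.85 within groups without GLA-SE replicate 3 and SE replicate 4. Ccl17 and Ccl22 had r = 0.86 (rho = 0.84), 0.84 within groups and 0.59 within groups without those tumors. Aire and Ccr7 had r = 0.89 (rho = 0.80), but 0.75 within groups and 0.53 without those tumors. Aire and Ccl17 were the loosest of these 10 pairs, with r = 0.48 (rho = 0.41) and 0.08 within groups. Within groups, the r of Aire was 0.75 with Ccr7, 0.79 with Cd83, 0.45 with Ccl22 and 0.08 with Ccl17. Without GLA-SE replicate 3 these were 0.42, 0.42, 0.29 and 0.01, and no test of their difference was made.

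**Figure D3:**
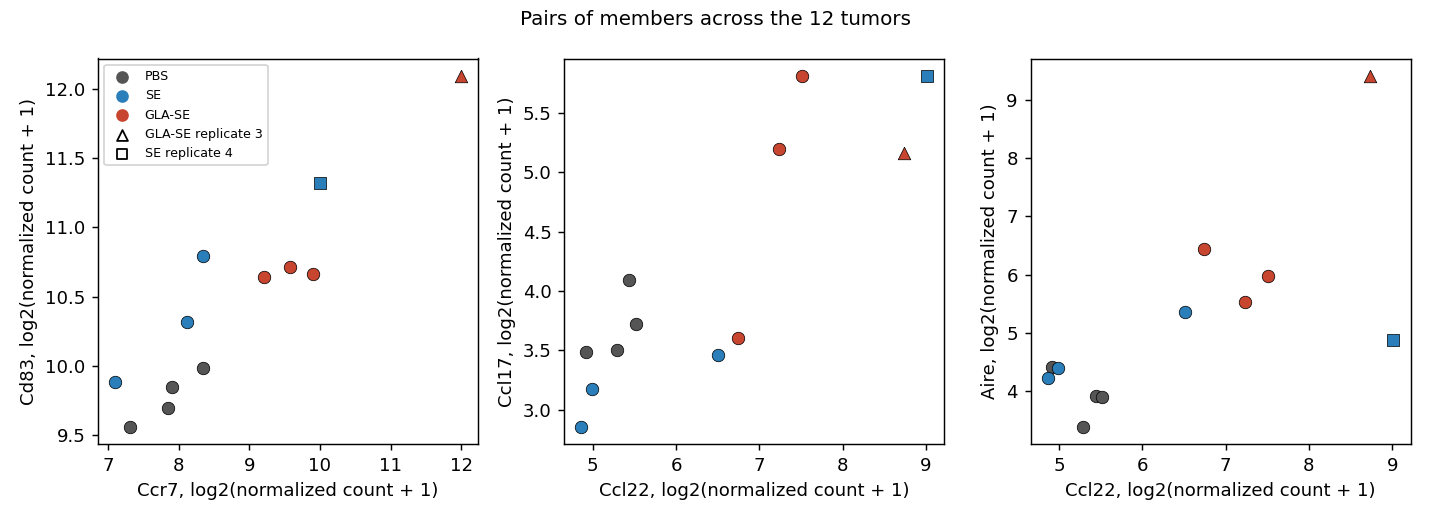
Each panel sets 1 gene against another as log2(normalized count + 1), with 1 point per tumor (12 tumors) coloured by group. Ccr7 and Cd83 rise along 1 line (r = 0.93), while SE replicate 4 (square) has the highest Ccl22 of all but an Aire value below that of every GLA-SE tumor.

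The correlations of Flt3 shifted with 1 tumor. Within groups and without GLA-SE replicate 3, its r was −0.96 with Ccl22, −0.86 with Cd83, −0.84 with Ccr7, −0.81 with Ccl17 and −0.28 with Aire. When SE replicate 4 was left out as well, these were −0.78, −0.61, −0.39, −0.33 and −0.37. With both tumors out, the mean r within groups was 0.10 over the 15 pairs and 0.40 over the 10 pairs without Flt3. Over the 15 pairs, Flt3 included, the mean r over tumors was 0.092 with the panel median scaling and 0.21 with TMM scaling, against 0.56 with reference gene scaling. This mean thus depended on the scaling. Values under those scalings for the 10 pairs without Flt3, or for all panel genes, are not given here.

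**Figure D4:**
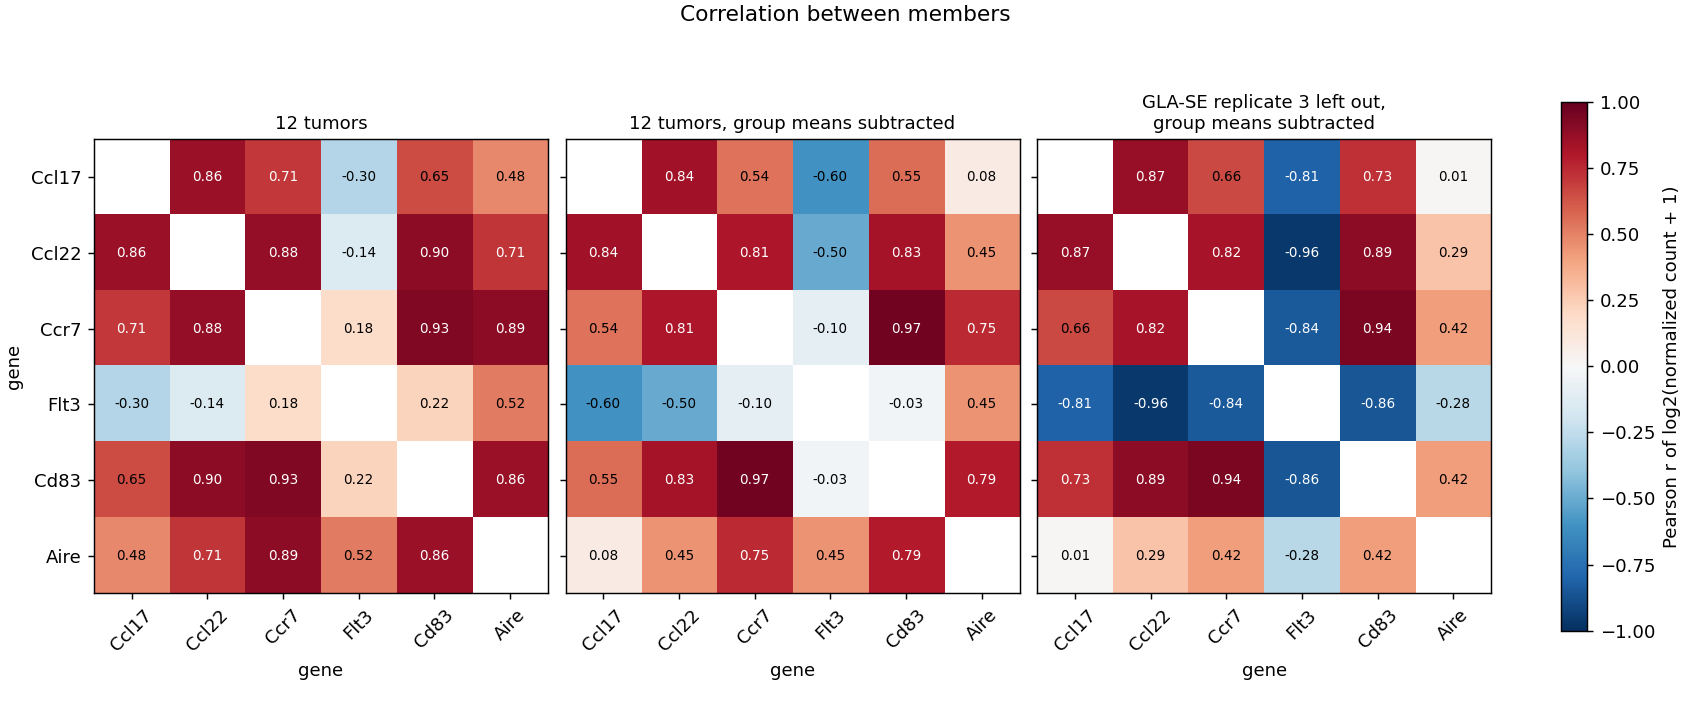
Pearson r of log2(normalized count + 1) for each pair of the 6 genes, over the 12 tumors (left), after subtracting group means (middle), and the same without GLA-SE replicate 3 (right). Ccr7 and Cd83 keep an r of 0.93 to 0.97 in the 3 panels, whereas the row of Flt3 runs from −0.30 to 0.52 on the left and is negative throughout on the right.

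Among 668 panel genes with a mean of at least 20 normalized counts, those most like Aire within groups were Il1a, a pro-inflammatory cytokine (r = 0.94), Hif1a, the oxygen-regulated transcription factor (0.93), Nfkbia, the NF-kB inhibitor (0.93), Lif (0.93), a cytokine of the interleukin 6 family, and Lcp1 (0.92), an actin-bundling protein of leukocytes. These values rested on GLA-SE replicate 3, without which they were 0.55 to 0.69. Il1a was 23.4 to 36.5 in PBS, 51.5 to 151 in SE and 98.3 to 1455 in GLA-SE tumors. Most like the mean of the 6 genes were Icosl, a T-cell costimulatory ligand (0.97), Relb, an NF-kB subunit of mature dendritic cells (0.97), Tank (0.96), an adaptor of TRAF signalling, Jak2 (0.95), a cytokine receptor kinase, and H2-K1 (0.95), an MHC class I chain. Here the r without GLA-SE replicate 3 was 0.93 to 0.96. SE replicate 4 was kept in, and its mean of the 6 genes was 8.24 on the log2 scale, against 6.39 to 7.26 in the other SE tumors. Whether these r rest on SE replicate 4 was not tested.

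Of the ligands and receptors that pair with these genes, 2 of 4 were called higher in GLA-SE against PBS and 0 lower. Over all 750 genes 68.3% were called higher. Leaving out 1 tumor moved the count of these 4 to between 0 (without PBS replicate 4) and 3. Ccl21a, the CCR7 ligand of lymphatic and lymph node stroma, had a log2 fold change of 3.57 (1.35, adjusted p = 0.0408) but overlapped between groups, and it was no longer called when any of PBS replicates 1, 2 and 4 or GLA-SE replicates 1 and 2 was left out (adjusted p 0.0547 to 0.201). Its normalized counts were 60.3, 51.4, 251 and 39.7 in PBS tumors, 37.4, 51.0, 1267 and 13427 in SE tumors, and 3946, 733, 50.0 and 91.5 in GLA-SE tumors. The high Ccl21a tumors were thus GLA-SE replicates 1 and 2 and SE replicates 3 and 4, and not GLA-SE replicate 3, where Ccr7 was highest. Ccl19, the other CCR7 ligand, had 0.09 (0.16, adjusted p = 0.621). Flt3l, the ligand of FLT3, rose by 0.50 (0.16, adjusted p = 0.0217), with 140 to 170 normalized counts in GLA-SE and 98.5 to 124 in PBS tumors, and was not called without PBS replicate 3 or 4 or GLA-SE replicate 1 (adjusted p 0.0549 to 0.0668). Ccr4, the receptor of CCL17 and CCL22, had 1.34 (0.55, adjusted p = 0.0563), with 6.35 to 21.7 in PBS and 16.6 to 59.8 in GLA-SE tumors.

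Of 16 other genes of mature and migratory dendritic cells, 14 were called higher in GLA-SE against PBS and 0 lower. Over all 750 genes 68.3% were called higher. The median log2 fold change of the 16 was 1.30 against 0.89 for all genes. Leaving out 1 tumor lowered the 14 calls to between 10 and 13, beside 58.5% to 66.7% of all genes called higher. The study reports that GLA raised Cd40, Cd80 and Cd86 in cultured A20 cells themselves. Which cells carried the rises in these tumors was not tested. The call of Il12b, the p40 chain of interleukin 12, rested on GLA-SE replicate 3. Its log2 fold change was 2.64 (1.00, adjusted p = 0.0407), with 29.2 to 65.9 normalized counts in PBS tumors and 58.8, 59.2, 883 and 58.0 in GLA-SE tumors, and without GLA-SE replicate 3 it was 0.47 (adjusted p = 0.200). Il12b was not called without any 1 of the PBS tumors either (adjusted p 0.0592 to 0.0955). Cd80, a costimulatory ligand of CD28, rose by 2.38 (0.53, adjusted p = 0.00462), from 113 ± 17.4 in PBS to 588 ± 508 in GLA-SE tumors, and by 1.58 (adjusted p = 0.000726) without GLA-SE replicate 3. Cd274, which encodes PD-L1, rose by 1.76 (0.27, adjusted p = 0.000896). Cd40, the receptor for CD40 ligand, rose by 0.93 (0.30, adjusted p = 0.0224) and Relb by 0.80 (0.19, adjusted p = 0.00655), and Cd40 was not called without PBS replicate 1, 2 or 3 (adjusted p 0.0504 to 0.0541). Nfkb2, the partner subunit of RelB, was at 0.10 (0.13, adjusted p = 0.494), and Lamp3, a lysosomal protein of mature dendritic cells, at 0.51 (0.32, adjusted p = 0.176) with 14.5 to 27.9 normalized counts in GLA-SE tumors. With the panel median scaling 1 of the 16 was called higher, and with TMM scaling 4, beside 8.13% and 19.7% of all genes.

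Markers of dendritic cell lineage and subsets were called higher for 6 of 8 genes and lower for 0, beside 68.3% of all genes higher. Their median was 0.91 against 0.89 for all genes. Irf4, a transcription factor of the type 2 lineage that B cells also use, rose by 1.71 (0.29, adjusted p = 0.00138), Itgae, the integrin chain CD103, by 1.08 (0.26, adjusted p = 0.0068), and Clec4a2, a C-type lectin receptor, by 0.94 (0.21, adjusted p = 0.00443). The other 2, Xcr1 and Cd207, were named after their values were seen. Xcr1, the chemokine receptor of type 1 dendritic cells, had −0.06 (0.33, adjusted p = 0.871), and Cd207, which encodes langerin, had 0.09 (0.35, adjusted p = 0.820), both at low counts. With the panel median scaling 0 of the 8 were called higher, and 1 with TMM scaling, beside 8.13% and 19.7% of all genes.

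Genes of the TNF family route that induces Aire in thymic epithelium were called higher for 6 of 11 and lower for 0. Over all genes 68.3% were called higher in GLA-SE against PBS. The median of the 11 was 0.45, below that of all genes. With 12 tumors in 1 fit 1 of the 11 was called higher, and 3 with TMM scaling and 0 with the panel median scaling. Over all genes 33.7%, 19.7% and 8.13% were called higher in these settings. Tnfsf11, which encodes RANK ligand, rose by 2.18 (0.52, adjusted p = 0.00645), from 16.8 to 34.9 normalized counts in PBS to 57.8 to 251 in GLA-SE tumors, and by 1.46 (adjusted p = 0.00255) without GLA-SE replicate 3. Tnfsf14, which encodes LIGHT, rose by 1.65 (0.31, adjusted p = 0.00208), and Tnfrsf11a, the receptor RANK, by 1.38 (0.18, adjusted p = 0.000405). In SE tumors Tnfsf11 was at 17.4, 40.6, 31.2 and 456 normalized counts and Tnfrsf11a at 46.1, 52.1, 199 and 326, so SE replicate 4 was the highest of all 12 tumors for both. In SE against PBS their log2 fold changes were 2.41 and 1.5 (adjusted p = 0.243 for both), and without SE replicate 4 they were 0.22 and 0.84. In GLA-SE against SE they were −0.23 and −0.12 (adjusted p = 0.942 for both), and 1.96 and 0.53 without SE replicate 4. Of 7 NF-kB subunits and feedback inhibitors 5 were called higher (3 without PBS replicate 2) and 0 lower, also with a median of 0.45. Tnfaip3, which encodes the inhibitor A20, a protein that shares only its name with the cell line, rose by 1.85 (0.47, adjusted p = 0.00778), and Nfkbia by 1.49 (0.42, adjusted p = 0.0122). Without GLA-SE replicate 3 these were 1.09 (adjusted p = 0.000333) and 0.83 (adjusted p = 0.000726). Over all 5 lists, 31 of 43 genes were called higher, beside 68.3% of all genes, with a median of 0.94 against 0.89. In SE against PBS and in GLA-SE against SE 0 of 43 were called, beside 0% and 2.13% of all genes higher. At TMM scaling 8 of the 43 were called higher in GLA-SE against PBS, and at the panel median scaling 1, beside 19.7% and 8.13% of all genes.

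**Figure D5:**
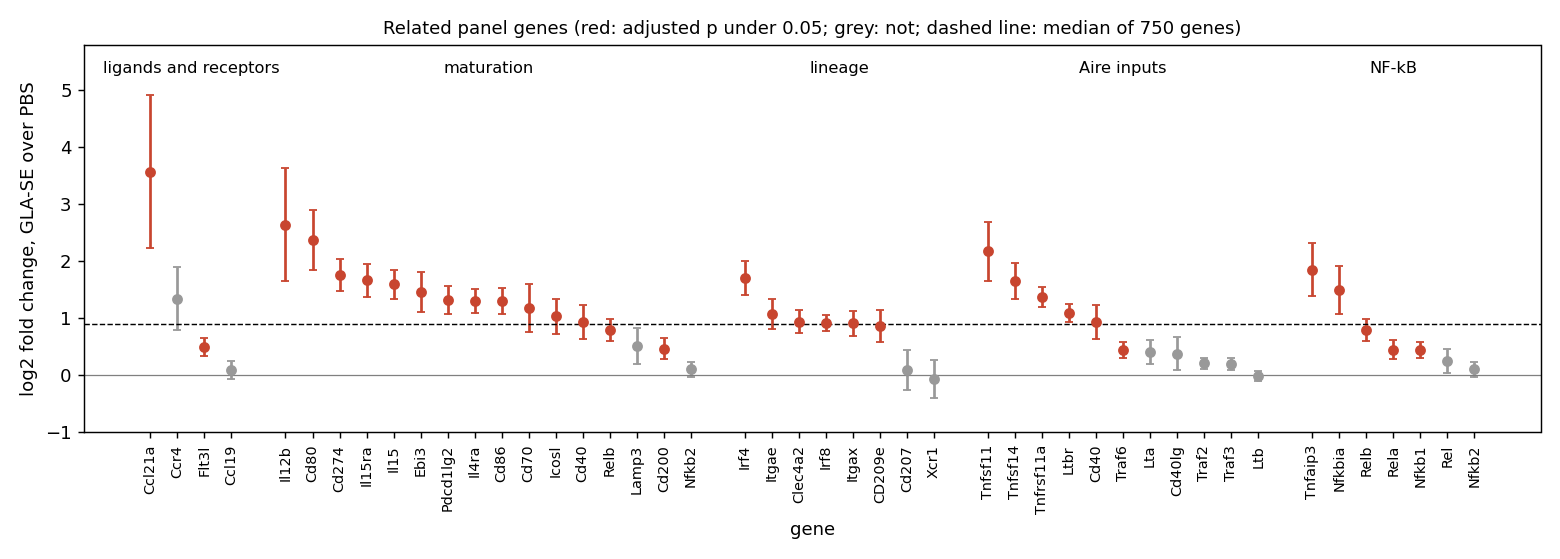
Log2 fold change with its standard error for GLA-SE over PBS tumors (n = 4 each) for 43 genes in 5 lists, with Cd40, Relb and Nfkb2 drawn under 2 of them; red points have an adjusted p under 0.05. The maturation list lies mostly above the dashed line, the median of 750 genes at 0.89, and much of the Aire inputs and NF-kB lists lies below it.

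Markers of other cells moved with the same comparison, in which 68.3% of all 750 genes were called higher and 0.4% lower. In GLA-SE against PBS, 14 of 14 monocyte and macrophage markers were called higher, with sums of 32968 to 41778 in PBS and 93892 to 133923 in GLA-SE tumors, and so were 11 of 11 markers of endothelium and fibroblasts, with sums of 4530 to 9835 and 18760 to 28137. T-cell markers were higher for 7 of 12 (1263 to 3302 in PBS, 3375 to 4500 in GLA-SE tumors) and NK-cell markers for 5 of 7 (489 to 1269 and 2431 to 3935). Neutrophil markers were higher for 4 of 10 (301 to 366 and 1264 to 11312), epithelial markers for 2 of 5 (283 to 640 and 551 to 702), and lymph node stroma markers for 2 of 5 (1960 to 2553 and 2547 to 7918). B-cell markers were higher for 0 of 10 and lower for 2, with sums of 21560 to 25043 in PBS and 17640 to 20941 in GLA-SE tumors. Among the most counted gene of each list, Lyz2 rose by 1.51 (0.14, adjusted p = 0.000175), Col3a1 by 1.63, Cd3d by 0.94, Gzma by 3.12 and S100a8 by 5.02, Ms4a1 fell by 0.45, and Epcam, at 0.54, did not pass. S100a8 rose by 3.62 (adjusted p = 0.000165) without GLA-SE replicate 3, and Cd3d was not called without GLA-SE replicate 3 or 4 or PBS replicate 3 (adjusted p 0.0574 to 0.0751). The SE sums spanned 28400 to 123748 for monocytes and macrophages and 299 to 4776 for neutrophils, highest in SE replicate 4 for both. Their part in the levels of the 6 genes was not tested.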

How the data were processed

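RNA from 12 tumors was counted on the nCounter mouse PanCancer Immune panel. The authors deposited whole-number counts per gene. The methods name normalization in nSolver (version not given in the sources used here), but totals and reference genes differed between tumors, so the deposited counts were treated as not normalized. Groups came from the labels, 4 mice each. The geNorm procedure kept 17 of 20 reference genes over the 12 tumors, and each tumor was scaled to their geometric mean. The comparisons used the quasi-likelihood test of edgeR 4.0.16 (R 4.3.3) on the 2 groups concerned, with no low-count filter or covariates and Benjamini-Hochberg adjustment over 750 genes at 0.05. All adjusted p above come from it. Log2 levels used a pseudocount of 1. In simulated data the fit called 66.3% of changes of log2 size 1 in GLA-SE against PBS, 16.1% in SE against PBS and 9.78% in GLA-SE against SE. For log2 size 2 it called 97.1%, 68.2% and 53.7%. Few or 0 calls in SE against PBS and GLA-SE against SE therefore do not show that genes were unchanged. Precision depends on each count and on 4 tumors per group.

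The 6 genes, lists and tests were chosen with earlier results of these data known. Named genes were the ligand and receptor list, the 3 largest called changes of each other list, Cd40, Relb, Nfkb2, Lamp3 and Tnfrsf11a in any case, the 5 most like Aire and the 5 most like the mean of the 6, and the most counted marker of each cell type. Alternatives were other reference gene sets, panel median, TMM or no scaling, low-count settings, 1 fit of 12 tumors, the replicate number as a block, DESeq2 1.42.0, and leaving out tumors. Leaving out GLA-SE replicate 3 and SE replicate 4 together, and the liver genes, were added after seeing the data.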

Additional observations from a re-analysis of the deposited data

Results flagged for a closer look

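A tumor stood far from the other 3 of its group in 12 of 45 sets of values (15 genes in 3 groups, by Dixon's test at 95%). Dixon's test was applied to normalized counts and not to their logarithms, on which fewer tumors may stand apart. By chance it gives about 2.25, or 1 in 20, for independent sets of normally distributed values. Counts need not be normal and the 45 sets share tumors, so 12 cannot be judged against 2.25. The 15 genes include the 6 chosen on these same values, which hold 6 of the 12 sets, so the count is a description and supports nothing. Of the 12, 6 fell on GLA-SE replicate 3 and 4 on SE replicate 4. In normalized counts, GLA-SE replicate 3 had 677 of Aire (45.3 to 86.4 in the other GLA-SE tumors), 4063 of Ccr7 (588 to 958), 4377 of Cd83 (1595 to 1680), 817 of Flt3 (503 to 517), 59.8 of Ccr4 (16.6 to 21.2) and 1645 of Cd40 (609 to 741). SE replicate 4 had 515 of Ccl22 (28.1 to 89.9 in the other SE tumors), 55.0 of Ccl17 (6.25 to 9.99), 13427 of Ccl21a (37.4 to 1267) and a low 501 of Cd40 (585 to 597). The remaining values were 251 of Ccl21a in PBS replicate 3 (39.7 to 60.3 in the other PBS tumors) and 543 of Cd40 in PBS replicate 4 (470 to 476). Ccl22 in GLA-SE replicate 3 and Aire in SE replicate 4 did not stand this far from their groups.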

How the results depend on the processing

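With the panel median scaling the median log2 fold change of the 6 genes was 0.65 in GLA-SE against PBS and 0.19 in SE against PBS. There 1 listed gene was called higher in GLA-SE against PBS, beside 8.13% of all genes. In GLA-SE against SE 0 panel genes were called, and the mean r was 0.092. With TMM scaling the medians were 1.04 and 0.27, 316 panel genes (148 higher, 168 lower) and 8 listed genes were called in GLA-SE against PBS and 3 panel genes in GLA-SE against SE, and the mean r was 0.21. With no rescaling 19 listed genes were called in GLA-SE against PBS, beside 46.8% of all genes higher, and 89 panel and 2 listed genes in GLA-SE against SE. In 1 fit of 12 tumors these numbers were 253 panel and 17 listed genes, and 70 and 5. DESeq2 with its own size factors called 342 (190 higher, 152 lower) and 11, with a median of 1.11 for the 6 genes, 9 panel genes in SE against PBS, and 72 and 1 in GLA-SE against SE. With reference gene size factors it called 58 panel and 3 listed genes in SE against PBS, and 107 and 6 in GLA-SE against SE. It gave Aire no adjusted p in GLA-SE against PBS. The cause of these shifts was not tested.

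Leaving out 1 tumor gave 442 to 503 panel calls in GLA-SE against PBS, 0 in SE against PBS and 4 to 102 in GLA-SE against SE, where SE replicate 4 gave 102 when left out, GLA-SE replicates 2 and 4 and SE replicate 3 gave 4 each, SE replicate 1 gave 5 and SE replicate 2 gave 7. The medians of the 6 genes ran from 1.59 to 2.24, 0.34 to 1.05 and 0.40 to 2.10, listed calls from 23 to 30, 0 to 0 and 0 to 5, and the mean r from 0.34 to 0.69 over tumors and 0.15 to 0.55 within groups, lowest without GLA-SE replicate 3 in both cases. Without GLA-SE replicate 3 and SE replicate 4, 68 panel and 3 listed genes were called in GLA-SE against SE, and the mean r within groups was 0.10. Same-numbered tumors did not deviate together (r −0.25 to 0.18), and 2 to 4 of 8 tumors per comparison were closest to their own number, so the numbers were not taken as pairs. With the replicate number as a block, 440, 0 and 0 panel genes were called, against 515, 0 and 16 without it. In GLA-SE against PBS 5 of the 6 genes were called with the block, beside 58.4% of all genes higher. The 6 were chosen on these same values, so this count supports nothing. Among the main results, 170 of 212 values moved within 1 SD or 1.5 times the count, and 42 moved further. Among 345 fold changes of single genes of the 6, counted apart from these, 36 were rated as moved. Counts under 20 limit Ccl17 in 8 of 12 tumors and Aire in 3 PBS and 2 SE tumors.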
